A study of Mus musculus with 18 samples.

Results

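The interferon response genes followed here are a list of 41 genes that cells switch on when interferon is sensed, and they were described in 18 primary mammary tumours of the mouse. A gene was a member if its symbol was on the list and the platform annotation gave that symbol, alone, to at least 1 array feature. By that rule 39 of the 41 were measured, of 16887 genes in all. Oas1a and Ifi44 had no such feature. Each of 38 members rested on 1 feature, and Parp14 on the mean of 2, whose ratios correlated at -0.262 over the arrays.

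Each array carried tumour RNA in the Cy5 channel and RNA of whole mice in the Cy3 channel as a common reference. The tumour channel is labelled Wnt1 on 6 arrays, Wnt1_iFGFR1 on 4, Wnt1_iFGFR2 on 4 and Wnt1_iR2 on 4. They are called Wnt1, iFGFR1, iFGFR2 and iR2 below. FVB and MMTV stand in the titles of all 18 samples, and Wnt1 is in the name of every group, the comparison group included. The title of the series is about cooperation of an FGF receptor with Wnt-1, so each group with a receptor name was set against the group labelled Wnt1 alone. The labels do not expand iFGFR1, iFGFR2 or iR2, and give no age, agent, dose or time. Whether the arrays of a group came from different animals is not in the labels, so a p-value here reflects sample-to-sample spread that could be technical.

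Values are log ratios of tumour over reference, read as log2, so a value of 0 is the level in whole-mouse RNA. Neither the base nor the direction is written in the table, and the dyes of the labels gave the direction. Because every ratio has the same reference, a gene was compared between groups and never with another gene. The markers of luminal mammary epithelium stood well above the reference on every array, with a list mean between 1.52 and 2.71 over 11 genes.

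Interferons are secreted proteins that bind receptors on the same or on neighbouring cells. Type I interferon acts through the kinases Jak1 and Tyk2, which activate Stat2. Stat2 and Irf9 are parts of a complex that binds the interferon-stimulated response element in promoters. The genes so induced encode sensors of foreign RNA and DNA, proteins that block viral growth, and parts of the route by which peptides are shown on MHC class I. Interferon gamma favours Irf1, the antigen processing genes and a family of GTPases.

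The response element can be read in the promoters of many members. RefSeq promoters of assembly GRCm38.p6, from 250 bases before to 50 bases after the start, were matched by symbol for 30 of the 41 members. The core of the element, GAAA followed by any 2 bases and again GAAA, on either strand and with overlapping matches counted, was found in 16 of these 30 (53.3%, 95% Wilson interval 36.1 to 69.8) and in 3.99% of all 27025 genes with a promoter in the table. With a C required after it, the longer element was left in 13 of 30 members (43.3%) and 0.944% of all genes. The Stat motif TTCNNNGAA was found in 9 of 30 (30%) against 9.55%. The following windows are shown because they carry the motif in members of different roles, some that were higher in iFGFR1 and some that were not. Each runs 5′ to 3′ on the strand of its gene, and capitals mark the bases covered by the core, which reads as TTTC, any 2 bases and TTTC where it lies on the other strand.
Isg15: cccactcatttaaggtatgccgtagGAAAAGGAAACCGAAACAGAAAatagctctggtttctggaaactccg
Ifit1: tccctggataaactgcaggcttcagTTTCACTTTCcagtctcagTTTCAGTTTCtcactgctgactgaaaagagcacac
Ifit3: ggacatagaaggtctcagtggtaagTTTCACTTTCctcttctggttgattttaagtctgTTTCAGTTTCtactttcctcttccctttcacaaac
Bst2: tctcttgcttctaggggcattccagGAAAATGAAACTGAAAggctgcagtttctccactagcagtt
Gbp3: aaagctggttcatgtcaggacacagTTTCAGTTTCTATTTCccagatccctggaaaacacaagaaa
Rsad2: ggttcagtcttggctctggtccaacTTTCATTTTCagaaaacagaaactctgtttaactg
Stat2: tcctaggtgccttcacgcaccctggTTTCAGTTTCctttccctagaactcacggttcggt
Irgm1: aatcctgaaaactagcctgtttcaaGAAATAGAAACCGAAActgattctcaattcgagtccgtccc
Igtp: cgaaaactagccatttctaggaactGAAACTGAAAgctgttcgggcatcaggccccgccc
The windows of Isg15 (chr4:156200850-156200921, minus strand), Ifit1 (chr19:34640760-34640838, plus), Ifit3 (chr19:34583348-34583441, plus), Bst2 (chr8:71537562-71537627, minus), Gbp3 (chr3:142559974-142560039, plus) and Rsad2 (chr12:26456538-26456597, minus) belong to genes that were higher in iFGFR1. Stat2 (chr10:128270251-128270310, plus), Irgm1 (chr11:48871410-48871475, minus) and Igtp (chr11:58199497-58199556, plus) were not called in any comparison with Wnt1. In Isg15 the 3 overlapping matches ran from position -78 to -57 relative to the start, and in Bst2 the 2 matches from -130 to -115. Among the members measured and found in the promoter table, 8 of the 14 called in iFGFR1 and 7 of the 14 not called there held the motif. A match is a description of these letters, not evidence that a factor was bound.

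The interferon response genes were higher in iFGFR1 tumours than in Wnt1 tumours. Of the 39 members 18 rose and none fell (limma with Benjamini-Hochberg adjustment over all genes, adjusted p under 0.05), where 8.38% of all genes tested rose and 7.06% fell. The list was chosen with earlier results of these arrays known, so its contrast with all genes is a description. The difference lay above 0 for 35 members and 51.8% of all genes, with a median of 0.96 on the log2 scale beside 0.02 for all genes. The rise took in 9 of 13 antiviral effectors, 3 of 3 members of the ISG15 system with its ubiquitin ligase, 2 of 4 sensors, 1 of 4 regulators, 1 of 5 GTPases, 0 of 4 antigen processing genes and 2 of 6 others. Irf7, Rtp4, Isg20 and Trim25 had all 4 iFGFR1 arrays above every Wnt1 array, as had 4.88% of all genes. In iFGFR2 no member passed the test (3.43% of all genes did), and in iR2 only Ifih1 did.

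**Figure D1:**
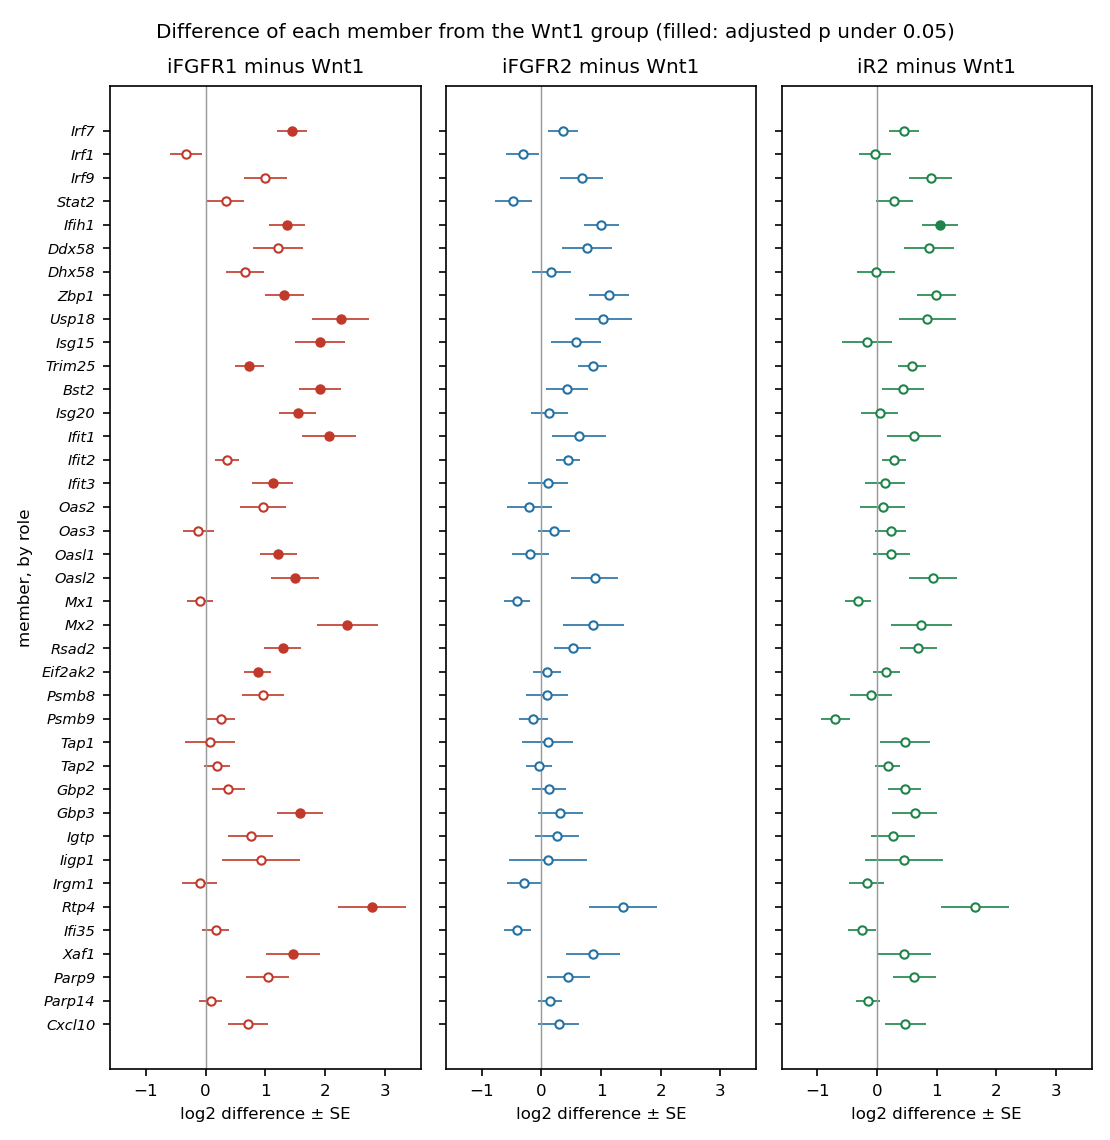
Difference of each of the 39 members from the Wnt1 group (log2, point) with its standard error (line), for iFGFR1, iFGFR2 and iR2 (n = 4 each against 6 Wnt1 arrays), ordered by role. Filled points passed an adjusted p of 0.05: 18 in iFGFR1, 0 in iFGFR2 and 1, Ifih1, in iR2.

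The rise in iFGFR1 was uneven between its arrays. The mean of the 39 members on iFGFR1 replicates 1 to 4 was 0.54, -0.40, 1.48 and 0.80. On Wnt1 replicates 1 to 6 it was -0.43, -0.45, 0.01, -0.54, -0.27 and -0.57. Replicates 1, 3 and 4 of iFGFR1 therefore stood above every Wnt1 array, and the mean of replicate 2 stood within the Wnt1 range. The member mean was 0.43, -0.19, -0.17 and -0.28 on the iFGFR2 arrays and -0.27, 0.29, -0.12 and 0.06 on the iR2 arrays, in replicate order. As group means these were -0.37 ± 0.22 (SD, n = 6) in Wnt1, 0.60 ± 0.78 (n = 4) in iFGFR1, -0.05 ± 0.33 (n = 4) in iFGFR2 and -0.01 ± 0.24 (n = 4) in iR2.

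**Figure D2:**
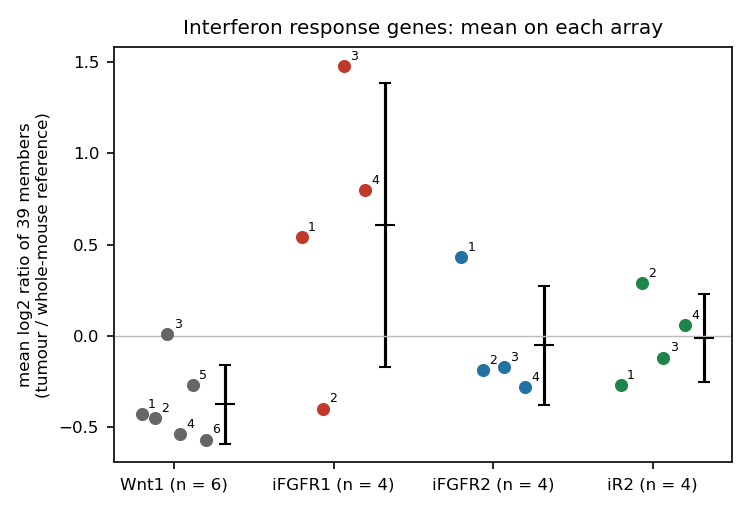
Mean log2 ratio of the 39 members on each of the 18 arrays (points, numbered by replicate), with the group mean and SD (bars). iFGFR1 replicates 1, 3 and 4 lie between 0.54 and 1.48, above all 6 Wnt1 arrays, while iFGFR1 replicate 2 lies at -0.40.

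Replicate 3 of iFGFR1 held the highest of all 18 values for 29 of the 39 members. On that array 35 members were above every Wnt1 array, beside 24.9% of all genes. The count was 25 members on iFGFR1 replicates 1 and 4 (27.9% and 26.2% of all genes) and 4 on replicate 2 (19.7%). Among the other receptor arrays it was 25 on iFGFR2 replicate 1 (29.8%) and 22 on iR2 replicate 2 (15.6%), and from 6 to 13 on the remaining 6 (11.7% to 20.5% of all genes), of which iFGFR2 replicate 4 with 7 and iR2 replicate 1 with 6 were at about the level of all genes (20.5% and 15.9%). Below every Wnt1 array were 8 of the 39 members on iFGFR1 replicate 2, near the 17.5% of all genes that were below. On the other receptor arrays 0 to 5 members were below, where 15.9% to 25% of all genes were. Without iFGFR1 replicate 3 the number of members higher in iFGFR1 was 11 in place of 18, and without replicate 2 it was 24. The 11 were Irf7, Ifih1, Usp18, Isg15, Bst2, Isg20, Ifit1, Mx2, Rsad2, Gbp3 and Rtp4. The share of all genes called without these arrays is not given, and whether the counts follow a change over all genes was not tested.

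The arrays also differed in spread. The 4 arrays with the highest member mean, iFGFR1 replicates 3, 4 and 1 and iFGFR2 replicate 1, also had the 4 widest interquartile ranges over all features, 1.08, 1.14, 1.14 and 1.23, where iFGFR1 replicate 2 had 0.87. Among the other arrays the range did not follow the member mean. iR2 replicate 2, with the next highest member mean (0.29), had 0.84, and Wnt1 replicate 6, with the lowest (-0.57), had 1.0. With every array scaled to the same median absolute deviation 16 members were called higher in iFGFR1, and the median difference of the members was 0.795. Wnt1 replicate 3 stood apart from its group, with correlations of -0.13 to -0.05 to the other 5 Wnt1 arrays after each feature was centred, and it had the highest Wnt1 member mean. iFGFR2 replicate 2 also correlated below 0 with its group, at -0.14 to -0.06. Without Wnt1 replicate 3 23 members were called in iFGFR1, with a median of 1.22, 2 in iFGFR2 (Ifih1 and Trim25) and 1 in iR2 (Ifih1). For this run and the scaled arrays the share of all genes called is not given.

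**Figure D3:**
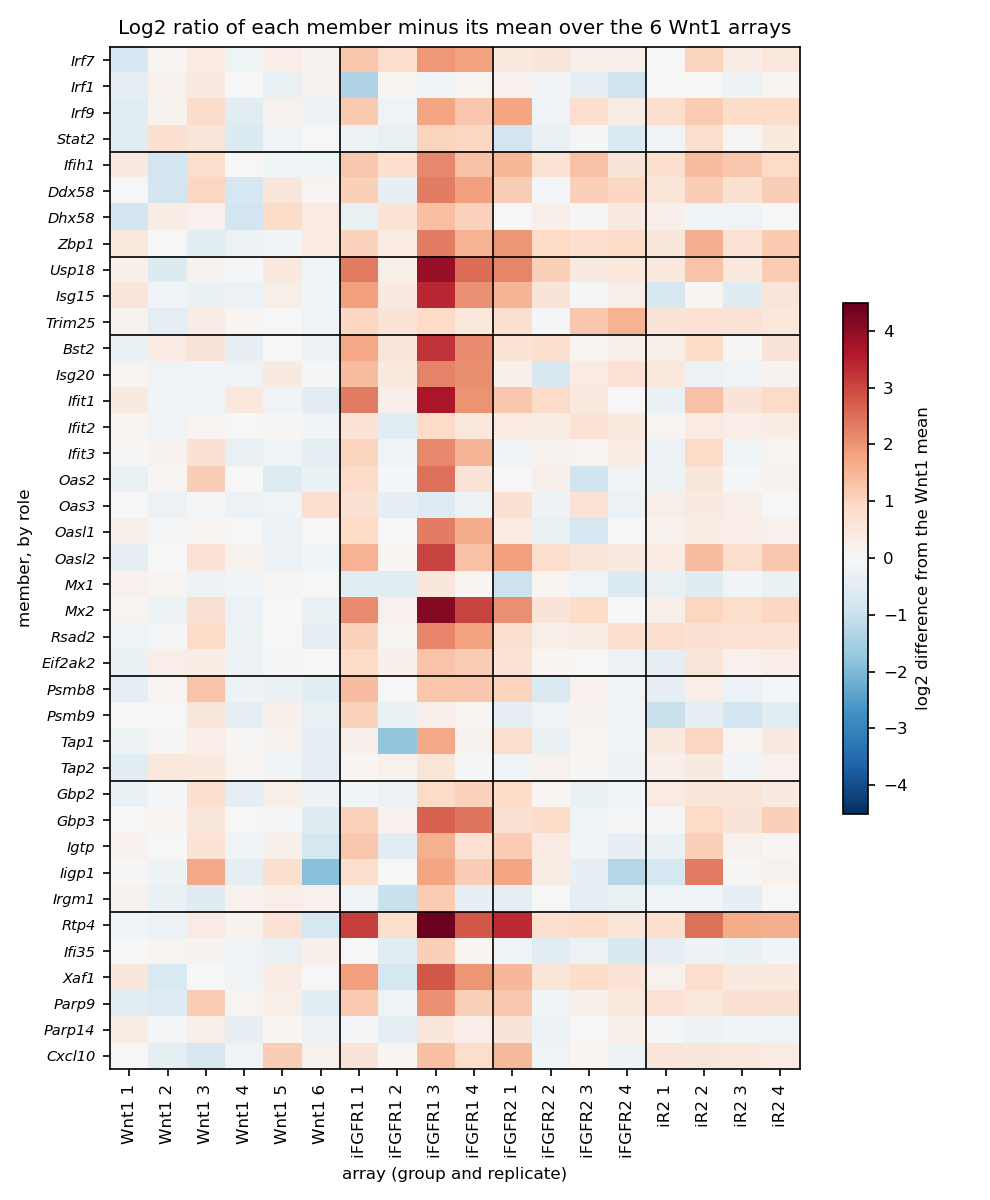
Log2 ratio of each member (rows, by role) on each array (columns, by group) minus the member's mean over the 6 Wnt1 arrays. Red is higher and blue lower than that mean. The deepest red is in iFGFR1 replicate 3, followed by replicates 4 and 1. On iFGFR1 replicate 2, 4 members are above every Wnt1 array (19.7% of all genes are) and 8 below (17.5% of all genes).

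The regulators came first in the order of roles, and for them and for each called member the values are given in full. Wnt1 is given by its lowest, median and highest array, and each receptor group by its 4 arrays in replicate order. Irf7, the factor that amplifies type I interferon production, ran from -1.14 through -0.22 to 0.01 in Wnt1, and was 0.87, 0.42, 1.58 and 1.45 in iFGFR1, 0.08, 0.19, -0.13 and -0.15 in iFGFR2 and -0.34, 0.62, -0.05 and 0.12 in iR2. All 4 iFGFR1 arrays thus lay above all 6 Wnt1 arrays, and the rise was 1.45 (SE 0.25, adjusted p = 0.000883), with no such separation in the other groups. Irf9, which joins Stat2 in the activating complex, ran from -0.30 through 0.17 to 1.03 in Wnt1, and was 1.39, 0.03, 1.96 and 1.41 in iFGFR1, 1.98, 0.05, 0.94 and 0.54 in iFGFR2 and 0.99, 1.34, 1.04 and 1.03 in iR2. Its difference from Wnt1 was 1.0 in iFGFR1 (adjusted p = 0.0649), 0.68 in iFGFR2 and 0.90 in iR2, and none passed the test.

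Stat2, the partner of Irf9, ran from -1.05 through -0.52 to 0.29 in Wnt1, and was -0.66, -0.78, 0.56 and 0.49 in iFGFR1, -1.29, -0.74, -0.52 and -1.10 in iFGFR2 and -0.59, 0.36, -0.38 and 0.00 in iR2. Irf1, a factor induced strongly by interferon gamma, ran from 0.48 through 0.92 to 1.27 in Wnt1, and was -0.48, 0.96, 0.67 and 0.97 in iFGFR1, 1.07, 0.74, 0.44 and -0.05 in iFGFR2 and 0.86, 0.86, 0.65 and 0.97 in iR2. The groups overlapped for both genes. The difference between iFGFR1 and Wnt1 was 0.34 for Stat2 (SE 0.31, adjusted p = 0.504) and -0.33 for Irf1 (SE 0.27, adjusted p = 0.428).

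Among the sensors, Ifih1 and Zbp1 rose in iFGFR1. Ifih1, which binds long double-stranded RNA in the cytosol, ran from -1.45 through -0.70 to 0.17 in Wnt1, and was 0.60, 0.14, 1.54 and 0.72 in iFGFR1, 0.88, 0.01, 0.71 and -0.02 in iFGFR2 and 0.12, 0.76, 0.61 and 0.29 in iR2. It rose by 1.37 (SE 0.30, adjusted p = 0.00452) in iFGFR1 and by 1.06 (SE 0.30, adjusted p = 0.0365) in iR2, and its difference in iFGFR2 was 1.01 (adjusted p = 0.0622). The call in iR2 was lost on leaving out Wnt1 replicate 2, 4, 5 or 6 or any single iR2 array. Zbp1, a sensor of nucleic acid in the Z form, ran from 0.04 through 0.44 to 0.98 in Wnt1, and was 1.55, 0.88, 2.80 and 2.08 in iFGFR1, 2.50, 1.41, 1.27 and 1.36 in iFGFR2 and 1.01, 2.14, 1.16 and 1.69 in iR2. All 8 arrays of iFGFR2 and iR2, and 3 of the 4 of iFGFR1, exceeded every Wnt1 array. The difference was 1.32 in iFGFR1 (adjusted p = 0.0106, a call lost without iFGFR1 replicate 3), 1.13 in iFGFR2 (adjusted p = 0.0589) and 0.99 in iR2 (adjusted p = 0.0715). The other sensors of RNA, Ddx58 and Dhx58, were 1.21 (adjusted p = 0.0567) and 0.66 (adjusted p = 0.175) above Wnt1 in iFGFR1 and were not called.

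All 3 members of the ISG15 system with its ubiquitin ligase rose in iFGFR1. Isg15, a ubiquitin-like protein attached to other proteins, ran from -1.61 through -1.43 to -0.75 in Wnt1, and was 0.55, -0.90, 2.08 and 0.76 in iFGFR1, 0.24, -0.72, -1.37 and -1.03 in iFGFR2 and -2.02, -1.20, -1.86 and -0.77 in iR2. Usp18, which removes Isg15 from proteins and damps the interferon receptor, ran from -2.20 through -1.54 to -1.14 in Wnt1, and was 0.74, -1.33, 2.33 and 0.93 in iFGFR1, 0.59, -0.53, -1.18 and -1.12 in iFGFR2 and -1.14, -0.30, -1.15 and -0.44 in iR2. In both genes iFGFR1 replicates 1, 3 and 4 were far above the Wnt1 range and replicate 2 lay in it. The rise was 1.92 for Isg15 (SE 0.42, adjusted p = 0.00426) and 2.26 for Usp18 (SE 0.48, adjusted p = 0.00354). Trim25, the ubiquitin ligase that activates the RNA sensor encoded by Ddx58, ran from -0.29 through 0.20 to 0.50 in Wnt1, and was 1.09, 0.75, 1.05 and 0.64 in iFGFR1, 0.92, 0.07, 1.35 and 1.70 in iFGFR2 and 0.72, 0.81, 0.78 and 0.64 in iR2. All iFGFR1 and iR2 arrays and 3 of the 4 iFGFR2 arrays were above every Wnt1 array. The rise of Trim25 was 0.73 in iFGFR1 (SE 0.24, adjusted p = 0.0448), a call lost on leaving out any of 13 arrays and with quantile normalization, scaled arrays, the more variable genes only or the title number as a covariate, and its difference was 0.86 in iFGFR2 (adjusted p = 0.0525) and 0.58 in iR2 (adjusted p = 0.147).

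**Figure D4:**
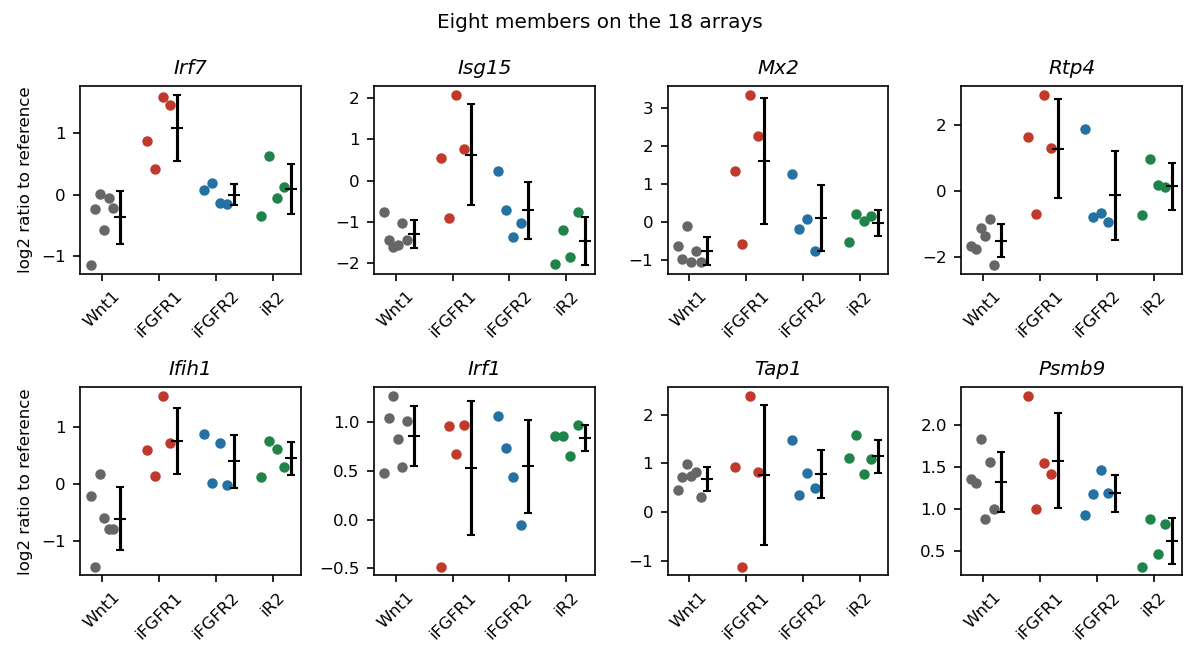
Log2 ratio of 8 members on the 18 arrays (points) with group mean and SD (bars; n = 6 for Wnt1 and 4 for each other group). Irf7 in iFGFR1 stands above every Wnt1 array, Isg15, Mx2 and Rtp4 spread widely over the iFGFR1 arrays, and Irf1 and Tap1 overlap between all groups.

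The antiviral effectors held 9 of the 18 calls. Bst2, which tethers budding virus to the cell surface, ran from -2.05 through -1.83 to -1.11 in Wnt1, and was 0.04, -1.13, 1.58 and 0.44 in iFGFR1, -1.07, -0.96, -1.58 and -1.44 in iFGFR2 and -1.42, -0.86, -1.64 and -1.12 in iR2. Isg20, an RNA exonuclease, ran from -1.52 through -1.46 to -0.94 in Wnt1, and was 0.04, -0.92, 0.90 and 0.76 in iFGFR1, -1.12, -2.07, -0.98 and -0.68 in iFGFR2 and -0.87, -1.62, -1.54 and -1.18 in iR2. For Isg20 all 4 iFGFR1 arrays were above the Wnt1 arrays, replicate 2 by the smallest margin. Bst2 rose by 1.92 (SE 0.35, adjusted p = 0.0012) and Isg20 by 1.54 (SE 0.31, adjusted p = 0.00235) in iFGFR1, against 0.42 and 0.14 in iFGFR2 and 0.43 and 0.04 in iR2, none of them called.

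Ifit1 and Ifit3 encode proteins that bind foreign RNA and stop its translation. Ifit1 ran from -2.44 through -2.05 to -1.44 in Wnt1, and was 0.42, -1.69, 1.74 and 0.08 in iFGFR1, -0.72, -1.07, -1.50 and -1.92 in iFGFR2 and -2.22, -0.61, -1.35 and -1.08 in iR2. Ifit3 ran from -2.30 through -1.91 to -1.17 in Wnt1, and was -0.88, -2.06, 0.30 and -0.32 in iFGFR1, -2.03, -1.69, -1.75 and -1.54 in iFGFR2 and -2.13, -1.0, -2.07 and -1.73 in iR2. The rise in iFGFR1 was 2.07 for Ifit1 (SE 0.45, adjusted p = 0.00426) and 1.12 for Ifit3 (SE 0.34, adjusted p = 0.0306). The Ifit3 call was lost on leaving out Wnt1 replicate 4, 5 or 6 or iFGFR1 replicate 1, 3 or 4, and with the title number as a covariate or the compared arrays only. Ifit2 of the same family differed by 0.36 in iFGFR1 and was not called, although its 4 values in iFGFR2 and its 4 in iR2 all exceeded the Wnt1 arrays.

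The oligoadenylate synthetase family makes the messenger that activates RNase L, and Oasl1 and Oasl2 are its relatives. Oasl1 ran from -1.18 through -0.88 to -0.66 in Wnt1, and was -0.02, -0.89, 1.40 and 0.76 in iFGFR1, -0.54, -1.24, -1.69 and -0.88 in iFGFR2 and -0.76, -0.57, -0.61 and -0.70 in iR2. Oasl2 ran from -1.0 through -0.63 to 0.06 in Wnt1, and was 1.0, -0.51, 2.45 and 0.72 in iFGFR1, 1.27, 0.18, -0.03 and -0.17 in iFGFR2 and -0.23, 0.81, 0.22 and 0.63 in iR2. They rose in iFGFR1 by 1.21 (SE 0.31, adjusted p = 0.0123) and 1.5 (SE 0.40, adjusted p = 0.0167), and both calls were lost without iFGFR1 replicate 3. Oas2 differed by 0.96 (adjusted p = 0.0969) and Oas3 by -0.12 (adjusted p = 0.801).

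Mx2 and Mx1 are dynamin-like GTPases that act on viral nucleoproteins. Mx2 ran from -1.07 through -0.88 to -0.10 in Wnt1, and was 1.34, -0.58, 3.35 and 2.27 in iFGFR1, 1.27, -0.18, 0.07 and -0.77 in iFGFR2 and -0.52, 0.20, 0.03 and 0.16 in iR2. It rose by 2.37 in iFGFR1 (SE 0.51, adjusted p = 0.00391). Mx1 ran from 0.09 to 0.54 in Wnt1 and was -0.15, -0.14, 0.84 and 0.41 in iFGFR1, a difference of -0.09 (SE 0.22, adjusted p = 0.825). Features of the Ifit, Oas, Oasl, Mx and Gbp families may share transcripts of close relatives, so values of single members of a family are uncertain.

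Rsad2, which makes an antiviral nucleotide, ran from -2.52 through -2.24 to -1.23 in Wnt1, and was -1.08, -1.98, 0.08 and -0.30 in iFGFR1, -1.38, -1.84, -1.77 and -1.36 in iFGFR2 and -1.32, -1.42, -1.45 and -1.51 in iR2. Its highest Wnt1 array was replicate 3, and the other 5 lay at -2.08 or below, under every receptor array. Eif2ak2, the kinase that halts translation on sensing double-stranded RNA, ran from -0.15 through 0.14 to 0.48 in Wnt1, and was 1.01, 0.39, 1.43 and 1.30 in iFGFR1, 0.76, 0.24, 0.13 and -0.11 in iFGFR2 and -0.25, 0.69, 0.34 and 0.47 in iR2. In iFGFR1 Rsad2 rose by 1.29 (SE 0.31, adjusted p = 0.0079) and Eif2ak2 by 0.87 (SE 0.23, adjusted p = 0.0165), the last lost without iFGFR1 replicate 3 or 4.

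The antigen processing members did not pass the test in iFGFR1. Psmb8 and Psmb9 encode subunits of the immunoproteasome, and Tap1 and Tap2 the transporter that carries peptides to MHC class I. Psmb8 was 2.37, 1.01, 2.23 and 2.20 in iFGFR1 and ran from 0.49 through 0.75 to 2.29 in Wnt1, where the highest value was that of replicate 3. Its difference was 0.96 (SE 0.35, adjusted p = 0.0687), and it was called without Wnt1 replicate 3. The differences of Psmb9, Tap1 and Tap2 were 0.25, 0.08 and 0.19. Tap1 spread from -1.11 on iFGFR1 replicate 2 to 2.38 on replicate 3, a wider range than the 0.31 to 0.99 of the Wnt1 arrays.

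Of the interferon-inducible GTPases, which attack vacuoles that hold pathogens, Gbp3 alone was called in iFGFR1. Gbp3 ran from -0.89 through -0.32 to 0.16 in Wnt1, and was 0.72, -0.13, 2.33 and 2.08 in iFGFR1, 0.34, 0.50, -0.54 and -0.37 in iFGFR2 and -0.37, 0.56, 0.26 and 0.73 in iR2. It rose by 1.58 (SE 0.38, adjusted p = 0.00833). Gbp2, Igtp, Iigp1 and Irgm1 differed by 0.38, 0.75, 0.92 and -0.10. Iigp1 was the most variable in Wnt1, from -3.92 to -0.33, with the highest value again on replicate 3.

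Rtp4 and Xaf1 were called among the remaining members. Rtp4, an interferon-induced chaperone of receptors, ran from -2.25 through -1.52 to -0.86 in Wnt1, and was 1.62, -0.71, 2.91 and 1.28 in iFGFR1, 1.86, -0.79, -0.67 and -0.96 in iFGFR2 and -0.74, 0.97, 0.16 and 0.12 in iR2. All arrays of iFGFR1 and iR2 lay above every Wnt1 array, and 3 of the 4 of iFGFR2 did. The difference from Wnt1 was the widest of the 39 members in each receptor group, 2.78 in iFGFR1 (SE 0.57, adjusted p = 0.00295), 1.37 in iFGFR2 (SE 0.57, adjusted p = 0.172) and 1.64 in iR2 (SE 0.57, adjusted p = 0.086). Xaf1, an antagonist of an inhibitor of apoptosis, ran from -0.69 through -0.04 to 0.50 in Wnt1, and was 1.83, -0.80, 2.78 and 1.95 in iFGFR1, 1.46, 0.51, 0.82 and 0.60 in iFGFR2 and 0.18, 0.76, 0.39 and 0.43 in iR2. Xaf1 rose by 1.46 in iFGFR1 (SE 0.45, adjusted p = 0.0326). That call was lost on leaving out Wnt1 replicate 2, 4 or 6 or iFGFR1 replicate 1, 3 or 4, with scaled arrays, with the title number as a covariate and with the compared arrays only, with an adjusted p of up to 0.141. Parp9 (1.04, adjusted p = 0.0587) and the chemokine Cxcl10 (0.71, adjusted p = 0.16) were not called, nor were Ifi35 (0.17) and Parp14 (0.08).

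In iFGFR2 no member passed the adjusted test, where 3.43% of all genes did. The lowest adjusted p was that of Trim25, 0.0525. At an unadjusted p under 0.05, 7 members were higher (11.2% of all genes were) and 0 lower, and with array weights limma called Ifih1 and Trim25. The median difference from Wnt1 was 0.26, with 30 of 39 members and 51.1% of all genes above 0. Ifit2, Xaf1 and Zbp1 were the 3 members with all 4 iFGFR2 arrays above every Wnt1 array, a pattern shown by 2.5% of all genes. Without iFGFR2 replicate 2 the calls numbered 3, Ifih1, Trim25 and Zbp1. For that run and the array weights the share of all genes called is not given.

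In iR2 Ifih1 was the 1 call among 39 members, where 3.91% of all genes rose and 3.19% fell. The median difference was 0.43, beside -0.05 for all genes, and 30 members were above 0, where 45.2% of all genes were. Rtp4, Ifit2, Zbp1 and Trim25 had every iR2 array above every Wnt1 array, as had 6.24% of all genes. Fitting the iR2 and Wnt1 arrays alone gave 8 members higher (Ifih1, Irf9, Mx2, Oasl2, Rtp4, Trim25, Usp18 and Zbp1) and Psmb9 lower. The shares of all genes given above belong to the fit of all arrays, and the share in this smaller fit is not given. Within iR2 the median SD over all genes was 0.17, beside 0.33 within Wnt1. Psmb9 was 0.31, 0.87, 0.46 and 0.82 in iR2 and ran from 0.87 through 1.33 to 1.83 in Wnt1. Its difference from Wnt1 was -0.70 in the fit of all arrays (SE 0.24, adjusted p = 0.0782). Isg15 was not above Wnt1 in iR2, with a difference of -0.17 (SE 0.42).

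When the 3 receptor groups were averaged and set against Wnt1, 12 members rose and none fell, where 6.9% of all genes rose and 5.62% fell. The median was 0.49. These comparisons share the 6 Wnt1 arrays with those above and are not separate support for them.

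The receptor groups were then set against each other, which tests whether the rise differed between them. Lower in iFGFR2 than in iFGFR1 were 4 members, Isg20 by a log2 difference of -1.41 (SE 0.34, adjusted p = 0.0325), Oasl1 by -1.40, Bst2 by -1.50 and Irf7 by -1.08, where 0.924% of all genes were lower. Below iFGFR1 in iR2 were 5 members, Isg15 at -2.09 (SE 0.45, adjusted p = 0.00562), Isg20 at -1.50, Bst2 at -1.49, Irf7 at -0.99 and Psmb9 at -0.96, where 6.84% of all genes were lower. No member was higher in either comparison, where 1.21% and 4.81% of all genes were, and the medians were -0.59 and -0.49. For the other members called in iFGFR1 against Wnt1, a difference between iFGFR1 and the other receptor groups was not shown. Mx2, for example, was -1.63 in iR2 relative to iFGFR1 (adjusted p = 0.0615).

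These counts rested on single arrays. Without iFGFR1 replicate 3 the calls numbered 0 for iFGFR2 against iFGFR1 and 3 for iR2 against iFGFR1, with medians of -0.264 and -0.193, and without iFGFR1 replicate 2 they numbered 13 and 16. The first comparison also had no call without iFGFR1 replicate 4 or iFGFR2 replicate 3, or with arrays scaled to 1 spread. Whether these changes in count are shared by all genes was not tested. Between iR2 and iFGFR2 limma called no member, where 1.34% of all genes were called. Unadjusted, 2 members were under 0.05, Stat2 at 0.76 and Psmb9 at -0.57. The F test over the 4 groups called 15 members, where it called 19.6% of all genes.

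The members moved together from array to array. The median correlation over the 741 pairs of members was 0.54 across the 18 arrays, beside 0 for pairs of all genes. It was 0.54 after group means were subtracted, 0.26 over the 6 Wnt1 arrays and 0.62 over the 12 receptor arrays. Without iFGFR1 replicates 3 and 4, the arrays farthest from the median, it was 0.34. These correlations describe arrays that share a reference and, as given above, differ in spread. Mx2 followed the mean of the other members most closely, at 0.98, then Usp18 at 0.95 and Bst2 and Oasl2 at 0.93. Mx1, Oas3 and Irf1 did not follow it, at 0.09, -0.11 and -0.12.

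Outside the list, Oas1f followed the member mean most closely, with a correlation of 0.944 over the 18 arrays and 0.866 without the same 2 arrays. Ncoa7 (0.91), Rnf213 (0.881), Slfn2 (0.851) and Arg2 (0.85) came next. Oas1f, a close relative of Oas1a, was 2.72 higher in iFGFR1 than in Wnt1 (SE 0.45, adjusted p = 0.000565). Arg2, a mitochondrial arginase, was 2.10 higher (SE 0.35, adjusted p = 0.00061).

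Lists of genes upstream of the members were read beside the 8.38% of all genes that rose and the 7.06% that fell in iFGFR1. Of 10 measured ligands and receptors 1 rose, the interferon gamma receptor chain Ifngr2 by 0.63 (SE 0.17, adjusted p = 0.0151). The type I receptor chains Ifnar1 and Ifnar2 differed by 0.03 and 0.11, and the other gamma chain Ifngr1 by -0.65 (adjusted p = 0.0749). The 4 measured ligands, Ifna1, Ifna4, Ifnb1 and Ifng, differed by 0.33, -0.99, -0.57 and 0.12, none called. Of 11 genes of the JAK-STAT route 2 rose, the inhibitors Ptpn2 by 0.92 and Pias1 by 0.66, while Jak1 and Tyk2 differed by 0.45 and 0.58 and were not called. Of 16 genes of nucleic acid sensing 1 rose, the DNA pathway adaptor Sting1 by 0.88 (SE 0.25, adjusted p = 0.02).

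A list of 57 interferon-stimulated genes outside the members was read beside them. Of these genes 5 rose and 2 fell in iFGFR1, with a median of 0.16, and the share that rose was near the 8.38% of all genes. Slfn2 rose by 1.70, Rnf213 by 1.26, Lgals3bp by 1.18, Oas1b by 0.97 and Ifitm3 by 0.66. Cxcl9, a chemokine induced by interferon gamma, fell by 1.17 (SE 0.29, adjusted p = 0.0114), and Gbp5, a GTPase, fell by 1.08 (SE 0.30, adjusted p = 0.0187). The members had been chosen with earlier results of these arrays known, so the contrast between the lists is a description.

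Of 19 MHC class I genes 5 rose in iFGFR1 and none fell, with a median of 0.46, where 8.38% of all genes rose and 7.06% fell. H2-Q1 rose by 1.31, H2-Q2 by 1.23, the chaperone Canx by 1.16, H2-T23 by 1.02 and H2-Q7 by 0.88. H2-D1 differed by 0.84 (adjusted p = 0.0647), H2-K1 by 0.22 and B2m by 0.10. Features of the H2 genes may share transcripts, as in the families above. The pathway lists held 10 ligands and receptors, 11 JAK-STAT, 16 sensing, 57 other interferon-stimulated and 19 MHC class I genes. In iFGFR2 they had 2 calls, Ly6e at -1.03 and Canx at 0.93, where 3.43% of all genes were called. In iR2 Samhd1 (1.05), Samd9l (1.01), Gbp7 (1.27), Pias1 (0.94), Jak2 (0.83), Canx (1.04), H2-Q2 (1.09) and H2-Q1 (0.94) were higher, and Ikbke (-0.90) was lower. Of all genes 3.91% rose and 3.19% fell in iR2.

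Tumour pieces hold several kinds of cell, and in bulk RNA fewer cells of a type and less RNA per cell cannot be told apart. Leukocyte markers were 1 higher of 8 in iFGFR1, Lcp1 by 2.31, while the common leukocyte gene Ptprc differed by 0.15 (adjusted p = 0.731). The level of that list, as a mean per array, ran from -0.89 to 0.12 in Wnt1 and from -0.64 to 0.12 in iFGFR1. The highest leukocyte mean of all arrays, 0.36, was on iFGFR2 replicate 1. On that array the T and NK cell mean (0.16) was also the highest of all arrays, and the member mean (0.43) the highest of iFGFR2. On iFGFR1 replicates 1 to 4 the leukocyte mean was -0.17, -0.64, -0.13 and 0.12. The T and NK cell mean there was -0.35, -0.24, -0.47 and -0.47, beside -0.45 to -0.22 in Wnt1. Replicate 3, with the highest member mean of all arrays, was thus within the Wnt1 range for leukocytes and below it for T and NK cells. The part of leukocytes in the values of the members was not tested. Plasmacytoid dendritic cells are strong producers of type I interferon. With Bst2 left out, since it is a member, their 7 measured markers held 0 higher and 1 lower (Tcf4), and ran from -0.79 to -0.33 in Wnt1 and from -0.79 to -0.48 in iFGFR1. Siglech differed by 0.31 and was not called. T and NK cell markers were 1 higher of 15 in iFGFR1 (Cd3d) and 5 lower of 15 in iR2. Of all genes 8.38% rose and 7.06% fell in iFGFR1, and 3.19% fell in iR2.

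Other cell type lists also held called genes in iFGFR1, where 8.38% of all genes rose and 7.06% fell. In lists this short a count of 1 or 2 genes is not read as a result. Neutrophil markers were 4 higher and 1 lower of 10, with list means of -1.49 to -1.25 in iFGFR1 and -2.35 to -1.67 in Wnt1, and S100a8 rose by 2.56. Fibroblast markers were 9 lower of 12, with means of -3.15 to -2.38 beside -1.77 to -0.75. Dendritic cell and MHC class II genes were 2 lower of 12, Cd74 by -2.22 (SE 0.31, adjusted p = 0.000105) and Itgax. Luminal markers were 4 higher of 11 and basal markers 1 higher and 5 lower of 10. Macrophage markers were 2 higher and 2 lower of 14, B and plasma cell markers 2 higher of 9, red cell genes 1 lower of 4, and endothelial and adipocyte genes were not called. The part of these lists in the rise of the members was not tested. On iFGFR1 replicate 2, where the member mean lay within the Wnt1 range, the fibroblast, basal and neutrophil means were -3.10, -1.19 and -1.49, outside the Wnt1 range of each list.

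**Figure D5:**
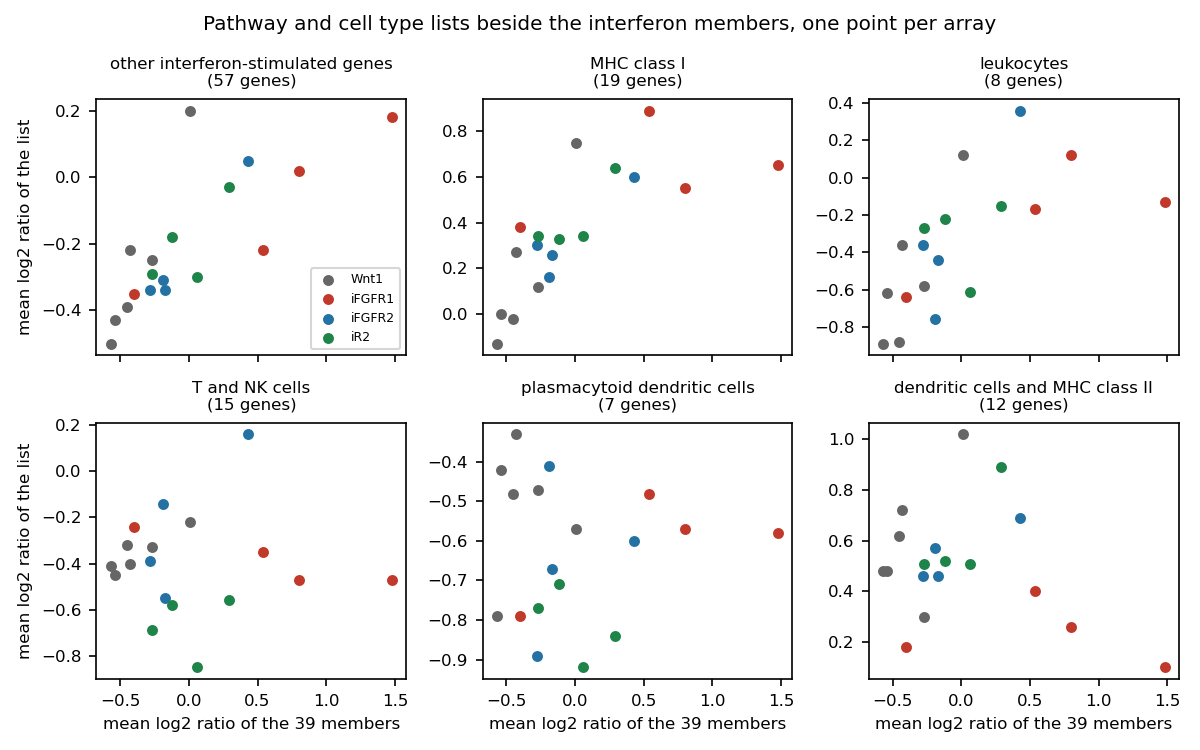
Mean log2 ratio of 6 gene lists (vertical axes) beside the mean of the 39 members (horizontal axes), 1 point per array, coloured by group. The lists of other interferon-stimulated genes, MHC class I and leukocytes tend to rise from lower left to upper right, with exceptions. The list of other interferon-stimulated genes is highest on Wnt1 replicate 3 (0.20) and at -0.22 on iFGFR1 replicate 1. On iFGFR1 replicate 3, farthest to the right, the leukocyte list is at -0.13, below the 0.12 of Wnt1 replicate 3. The leukocyte list is highest, at 0.36, on iFGFR2 replicate 1. The plasmacytoid dendritic cell list stays between -0.92 and -0.33 on all arrays.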

How the data were processed

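The authors deposited 1 table of log ratios, read here as log2, for 22575 array features on 18 arrays. Per the labels, tumour RNA was extracted with a Qiagen RNeasy kit and labelled with Cy5, and the whole-mouse reference was extracted with TRIZOL and labelled with Cy3. The scanner, background correction, normalization, log base and direction were not given in the sources used here; base 2 and tumour over reference were assumed, and the table had no empty cell. The number of arrays limits the precision.

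Features with 1 platform symbol (18658) were averaged per symbol, giving 16887 genes. Features with several symbols (30) or none (3887) named no gene; 1 of them names Cxcl10 with another gene. Groups came from the tumour channel's label. Replicate numbers follow accession order and pair nothing. With R 4.3.3, limma 3.58.1 (lmFit, then eBayes, two-sided) fitted all 18 arrays without covariates, with Benjamini-Hochberg adjustment over all genes in each of 7 comparisons and an F test, at a threshold of 0.05. Every adjusted p is from this fit, which was tested on simulated data. The alternatives were other scaling, weights, priors, filters, thresholds, the title number as a covariate, the compared arrays only and leaving out each array. The title number is the number in the title of each sample, and what it stands for was not given. It ran from 5101 to 5106 in iR2 and was at most 4013 in the other groups, so it is tied to group.

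The members, lists and alternatives were chosen with earlier results of these data known. Every measured member may be named; values on every array are given for members called against Wnt1 and for the regulators. Of other lists, at most 4 called genes by smallest p and a fixed set (such as Ifnar1, B2m and Ptprc) may be named, with the 10 genes that correlate most with the member mean; the interferon ligands, Siglech and genes named beyond these limits were chosen after their values were seen. Promoters are RefSeq's, matched by symbol.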

Additional observations from a re-analysis of the deposited data

Results flagged for a closer look

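In 9 of 160 groups of 4 or 6 arrays examined, 1 array lay far from the others (5.62%, where chance gives about 1 in 20). On iFGFR2 replicate 1 this held for Rtp4 (1.86, next value -0.67), Zbp1 (2.50, next 1.41) and the mean of the members (0.43, next -0.17). On Wnt1 replicate 3 it held for Rsad2 (-1.23, next -2.08) and Psmb8 (2.29, next 1.10). The remaining cases were Oas3 on Wnt1 replicate 6 (1.05, next 0.33), Psmb8 on iFGFR1 replicate 2 (1.01, the lowest, next 2.20), Ddx58 on iFGFR2 replicate 2 (0.47, the lowest, next 1.48) and Irf9 on iR2 replicate 2 (1.34, next 1.04).

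Differences between receptor groups passed the test for Irf7 (-1.08), Bst2 (-1.50), Isg20 (-1.41) and Oasl1 (-1.40) in iFGFR2 relative to iFGFR1, and for Irf7 (-0.99), Bst2 (-1.49), Isg15 (-2.09), Isg20 (-1.50) and Psmb9 (-0.96) in iR2 relative to iFGFR1 (limma, adjusted p under 0.05).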

How the results depend on the processing

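Counts are members called of 39. The share of all genes called in each alternative run is not given, here or above. Whether these counts follow a change over all genes was not tested. No sign of a called member turned in any alternative run. For iFGFR1 against Wnt1 the count was 18, 11 at a threshold of 0.01, and 11 to 24 on leaving out 1 array. For iFGFR2 it was 0, but 1 with quantile normalization, a trended prior or the more variable genes, 2 with array weights, 3 at a threshold of 0.1, and 0 to 3 on leaving out 1 array (1 without iFGFR1 replicate 2 or 3, 2 without Wnt1 replicate 3, 3 without iFGFR2 replicate 2). For iR2 it was 1, but 5 with scaled arrays, 11 with array weights, 9 with the compared arrays only, 0 with the title number as a covariate or at 0.01, 4 at 0.1, and 0 to 3 on leaving out 1 array (2 without iFGFR1 replicate 1 or 3, 3 without iFGFR1 replicate 2 or iFGFR2 replicate 1). For the mean of the 3 groups it was 12, but 1 with the title number, 3 at 0.01, and 5 (without Wnt1 replicate 2) to 19 (without iFGFR1 replicate 2) on leaving out 1 array; it was 6 without Wnt1 replicate 1, 5 or 6. For iFGFR2 against iFGFR1 it was 4, but 0 with quantile normalization, scaled arrays, the compared arrays only or at 0.01, 2 with array weights or the title number, and 0 to 13 on leaving out 1 array (1 without iFGFR1 replicate 1 or iFGFR2 replicate 1, 2 or 4, 2 without Wnt1 replicate 2, 4, 5 or 6 or iR2 replicate 1, 3 or 4). For iR2 against iFGFR1 it was 5, but 8 with scaled arrays, 15 with array weights, 1 with the title number, 2 at 0.01, 12 at 0.1, and 2 (without iR2 replicate 3) to 16 (3 without iFGFR1 replicate 3 or iR2 replicate 1). The F test called 15, but 23 with array weights, 4 at 0.01, and 8 (without iFGFR1 replicate 3) to 25 (without iFGFR1 replicate 2). The cause was not tested. Because the title number is tied to group, above all in iR2, the counts with it as a covariate cannot separate the number from the group. Fewer arrays or another threshold change the power by construction, and the main fit shares the estimate of spread over all groups. The median SD over all genes was 0.17 within iR2, 0.33 within Wnt1, 0.38 within iFGFR1 and 0.39 within iFGFR2. Between iR2 and iFGFR2 the count stayed at 0 on leaving out any array. The co-variation of 0.54 was 0.34 without 2 arrays. Medians on leaving out 1 array ran from 0.739 to 1.316 for iFGFR1, 0.19 to 0.435 for iFGFR2 and 0.251 to 0.449 for iR2. No paired analysis was possible because replicate numbers follow accession order and link no samples.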
